A study of Homo sapiens with 12 samples.

Results

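The globin chains and their chaperone were examined in K562, a human chronic myeloid leukemia line with erythroid features. The 10 genes, of 27348 in the deposited expression table, were listed by name and not by their values. They are HBZ, HBA2, HBA1 and HBQ1 of the alpha-like cluster, HBE1, HBG2, HBG1, HBD and HBB of the beta-like cluster, and AHSP. Cells had been infected with pLKO.1 vectors, selected with puromycin, and carried either of 2 hairpins against the long isoform of PHF19 (sh#1, sh#2) or the empty vector (shCT). RNA was sequenced in 6 libraries, 4 with a hairpin (2 for sh#1 and 2 for sh#2) and 2 with shCT. ChIP-seq with a fly chromatin spike-in gave 6 libraries, 1 per condition. Peak lists of 3 of them were analysed, namely MTF2 in sh#2 cells, MTF2 in shCT cells and PHF19 in shCT cells. The other 3 ChIP libraries (PHF19 with either hairpin, and IgG) were not analysed here.

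Hemoglobin is a tetramer of alpha-like and beta-like chains around heme. In each cluster the genes lie along the chromosome in the order of their use. Zeta and epsilon globin serve the embryo, gamma globin the fetus, beta and delta globin the adult, and alpha globin both fetus and adult. A distant enhancer in each cluster drives one promoter after another as red cells of successive stages form. AHSP binds free alpha chains and keeps them from precipitating. PHF19 and MTF2 are Polycomb-like proteins that bring PRC2, the complex that methylates lysine 27 of histone H3, to CpG-rich DNA of silent genes.

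2 limits set what can be said. The expression table held one mean per gene over the libraries of the comparison, apart from columns of the authors' own comparison, which were not used. Levels in hairpin and shCT cells are therefore not given apart, PHF19 included, and no level has a replicate error or a test. In addition, some headings inside the peak lists differ from the labels: the list labelled MTF2 in sh#2 cells names sh4 in its heading, and the list labelled PHF19 in shCT cells names both Ct and sh4. Directions between the libraries labelled sh#2 and shCT rest on the labels.

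Among the RefSeq promoters at hand, which run from 250 bases before a gene's start to 50 bases after it, 1 of the 10 genes had an entry. This was HBD, the minor adult beta-like chain. It is shown beside HBM, which encodes mu globin and sits in the alpha cluster, because the 2 promoters lie far apart in their content of CpG, the dinucleotide that Polycomb-like proteins favour. Neither stands for its cluster. Capitals mark matches to GATAA (the core bound by GATA factors), CACCC (bound by Krüppel-like factors), CCAAT and TGACCA, searched on both strands. The HBD window is GRCh38.p14 chr11:5234434-5234733 on the minus strand, and that of HBM is chr16:165728-166027 on the plus strand.
HBD: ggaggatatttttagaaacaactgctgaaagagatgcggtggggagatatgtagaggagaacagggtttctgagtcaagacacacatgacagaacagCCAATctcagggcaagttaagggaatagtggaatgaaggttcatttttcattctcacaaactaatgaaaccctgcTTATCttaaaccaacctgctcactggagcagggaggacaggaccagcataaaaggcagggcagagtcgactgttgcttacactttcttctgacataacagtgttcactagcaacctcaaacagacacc
HBM: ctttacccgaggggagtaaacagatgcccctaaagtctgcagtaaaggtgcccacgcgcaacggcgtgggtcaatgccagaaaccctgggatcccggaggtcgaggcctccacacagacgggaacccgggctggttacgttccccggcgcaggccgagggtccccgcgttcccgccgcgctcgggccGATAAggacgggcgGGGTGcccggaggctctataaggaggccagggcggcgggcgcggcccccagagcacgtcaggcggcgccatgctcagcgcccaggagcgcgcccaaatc
The HBD window held 2 CG dinucleotides and that of HBM 33, where the median over 35116 promoters was 14. GATAA was found once in each window, as in 22.7% of all promoters. The HBD match, TTATC in the printed strand, starts at base 173 of the window counted from 1 at the 5′ end, and that of HBM at base 188. CCAAT stood in the HBD window (34.6% of all promoters) and CACCC in that of HBM, printed as GGGTG (59.9%). TGACCA was in neither, and in 10.7% of all promoters. These are matches of letters and no measure of binding.

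All 10 genes reached a mean normalized count of 10, as did 53.7% of the genes in the table. Of the 10, 5 were at 10000 or more, as were 1.99% of all genes. Together they held 1.09% of the sum of all means, and the gamma globins alone 0.910%. In bulk libraries, more cells with a transcript and more transcript per cell cannot be told apart.

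The fetal chains led. HBG2 had a mean normalized count of 171752 and HBG1 one of 146039, ranks 5 and 7 of the 27348 genes. Ratios between genes were taken on length scales, such as per kb of exon. Unless given on such a scale, ranks, shares and classes of level use counts that are not scaled to length. On the scale of all annotated exons merged, HBG2 stood at 204224 per kb, above every other of the 23366 genes placed, and HBG1 at 99549 per kb, with rank 3. The ratio of HBG2 to HBG1 depended on the length used. It was 2.05 by merged exons, since those of HBG1 span 1467 bp against 587 bp of its canonical transcript, and 1.18 per kb of the canonical transcripts. The canonical scale was added after the data were seen.

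Of the embryonic chains, HBZ (zeta) had a mean normalized count of 27490 and HBE1 (epsilon) one of 8783. Per kb of merged exons these were 23698 for HBZ and 9139 for HBE1, so HBE1 stood at 0.386 of HBZ. The summed gamma globins stood 33.2-fold above HBE1 on that scale. Per unique stretch, a scale described with the sequence copies of these genes, HBE1 stood at 0.185 of HBZ and the gamma globins 99.3-fold above HBE1.

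Of the alpha chains, HBA1 had a mean normalized count of 13096 and HBA2 one of 10858. Per kb of merged exons, HBA1 was at 15684 and HBA2 at 13130. HBZ stood at 0.822 of their sum. HBQ1 (theta), a globin with no known part in hemoglobin, had a mean normalized count of 600.1, or 1137 per kb.

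The adult beta-like chains were the lowest of their cluster. HBD (delta) had a mean normalized count of 1569 and HBB (beta), the main chain of adult blood, one of 35.3. HBB ranked 12470 of 27348, and 41.3% of the genes with a mean above 0 were lower. Per kb of merged exons, HBD was at 1362 and HBB at 27.1, a ratio of 50.3.

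AHSP, the alpha chain chaperone, had a mean normalized count of 212, or 403 per kb. The summed alpha-like chains stood 133-fold above it per kb of merged exons and 562-fold per unique stretch.

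**Figure D1:**
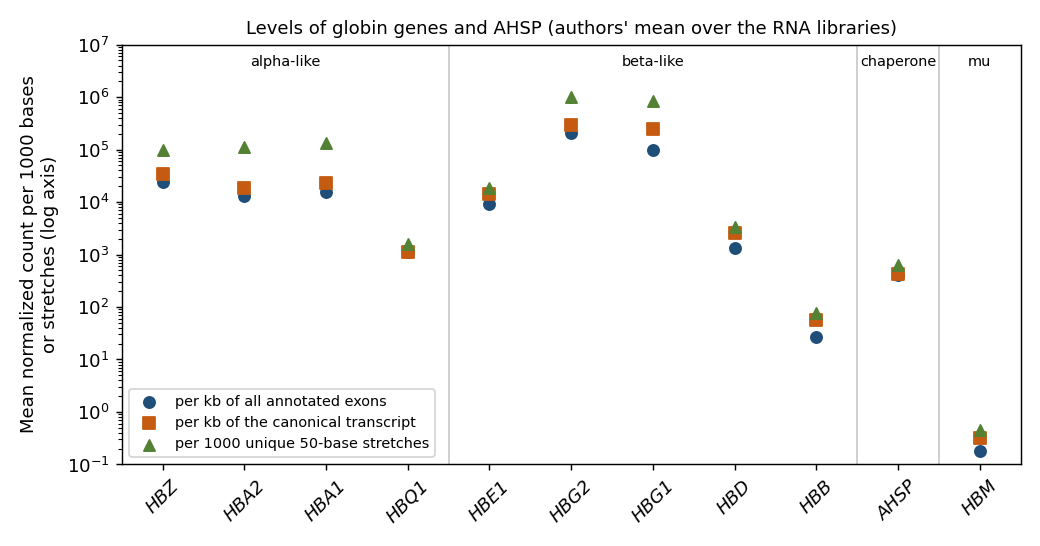
Levels of the 10 genes and of HBM on 3 length scales (log axis), as the authors' mean over the RNA libraries, with no error since a single mean is given. HBG2 and HBG1 are the highest on each scale, HBB is the lowest of the 10, and HBM lies below 1.

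Summed per kb of merged exons, the beta-like chains came to 314302 and the alpha-like chains to 53649, a ratio of 5.86. Gamma globin made up 96.7% of the beta-like sum, epsilon 2.91%, delta 0.433% and beta 0.00862%. On the alpha side, HBA1 and HBA2 made up 53.7%, zeta 44.2% and theta 2.12%. Zeta and alpha chains thus both had large shares, while on the beta side gamma globin made up nearly the whole.

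Other globins were low or absent. HBM was at a mean normalized count of 0.162, CYGB (cytoglobin) at 2.47, MB (myoglobin) at 0.367, and NGB (neuroglobin) was listed at 0. The pseudogene HBBP1, between the gamma and delta genes, was at 121.

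How much of each chain a read can tell from its copies bears on these levels. According to the methods, reads were kept at a single place in the genome, and no read length is given in the sources used here. The mature transcripts of HBG1 and HBG2 were 99.1% identical, those of HBA1 and HBA2 96.5%, and those of HBB and HBD 85.4%. Of the exonic stretches of 50 bases, 22.6% of HBA1 and 22.4% of HBA2 occur once in the genome. The shares were 39.5% for HBG1, 39.4% for HBG2 and 42.2% for HBZ. By contrast, 97.1% of HBB, nearly as many of HBD and all of HBE1, HBQ1 and AHSP were unique.

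**Figure D2:**
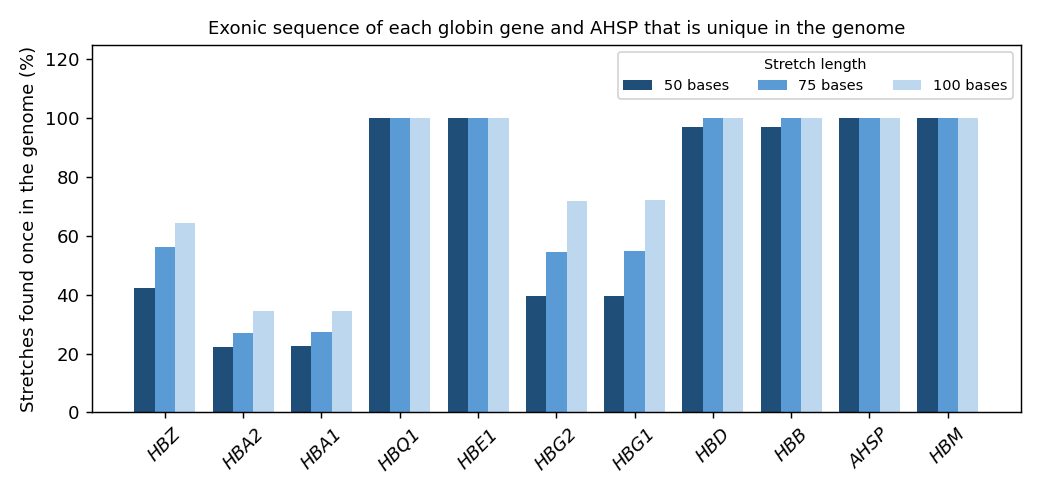
Share of exonic stretches of 50, 75 and 100 bases that occur once in the genome (percent), for the 10 genes and HBM. At 50 bases the gamma, alpha and zeta genes lie between 22.4% and 42.2%, and the others near or at 100%.

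Per 1000 unique stretches of 50 bases, a scale added after the data were seen, HBG2 was at 992789 and HBG1 at 839303. On it HBA1 was at 135014, HBA2 at 113108 and HBZ at 99964, so that HBZ stood at 0.403 of the summed alpha genes. Zeta then made up 28.6% of the alpha-like sum, and the ratio of beta-like to alpha-like sums was 5.30. The order of zeta and the single alpha genes therefore turned with the scale: HBZ was above HBA1 and HBA2 per kb of exon and below both per unique stretch.

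Neighbouring transcripts overlap some of these genes. Annotated HBG2 and HBE1 transcripts start far upstream, where long annotated transcripts of the olfactory receptor gene OR51B5 also start. They share 37 (HBG2) and 84 (HBE1) exonic bases with OR51B5, none of them in the canonical transcripts. HBG2 and HBE1 also share 37 exonic bases with each other there, and HBG2 had by far the higher mean normalized count (171752, against 8783 for HBE1). OR51B5 had a mean normalized count of 5114 and OR51B4, which also lies upstream of HBE1, one of 876. HBD shares 88 exonic bases with HBBP1, again outside its canonical transcript, and HBZ shares 205 with HBM, within its canonical transcript. How such bases were counted is not given in the sources used here.

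The binding question was then put to each gene. A gene counted as having a peak if 1 bp or more of a peak lay between 2.5 kb upstream of a transcription start and the transcript end. In the MTF2 list of sh#2 cells, 0 of the 10 genes had one, against 18.0% of the 23366 genes placed. The MTF2 list of shCT cells also gave 0 of 10, against 13.5% of all genes. PHF19 in shCT cells gave 0 of 10, against 10.2%. The searched region grows with gene length, and the shares over all genes pool every length. Canonical transcripts of the 10 genes are short, with 488 bp (AHSP) to 798 bp (HBZ) of exon. Longer annotated transcripts widen the search for some of them, such as HBG2 and HBE1. Shares among genes of like length were not computed, so 0 of 10 is not a measure of depletion. With 10 genes in 3 loci, these counts are not 10 separate observations, and each list comes from 1 library.

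The clusters themselves held no peak. On GRCh37, the alpha cluster runs from HBZ to HBQ1 at chr16:202643-231178 (28536 bp) and the beta cluster from HBB to HBE1 at chr11:5246694-5291175 (44482 bp). In each of the 3 lists, 0 bases of either cluster lay under a peak. The lists held 18287 peaks over 63.2 Mb (MTF2, sh#2), 12502 over 29.0 Mb (MTF2, shCT) and 5621 over 11.5 Mb (PHF19, shCT). The paper counted fewer PHF19 peaks, since it kept only those above a tag threshold. That filter could not be applied here, so all PHF19 shares and distances refer to the longer, unfiltered list.

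Absence from a list is not a measure of signal, since the lists give positions and a score of at least 50 and no tag counts. Reads were required to map once, and the regions searched were not all mappable. Of 50-base stretches in the searched region of the canonical transcript, 51.8% were unique for HBA1, 52.1% for HBA2 and 66.8% for HBZ. For HBG2 and HBG1 the shares were 73.1% and 73.9%, and for the other 5 genes they were at least 90.5%. The part of mappability in the absence of peaks was not tested.

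The nearest peaks lay well outside. Right of the alpha cluster, the first peak of the MTF2 sh#2 list was at chr16:329842-331588, 98.7 kb away, over the start of ARHGDIG. In the MTF2 shCT list it was at chr16:475737-476997, 245 kb away, within RAB11FIP3. The first PHF19 peak was at chr16:609489-611430, 378 kb away, over the start of PRR35. To the left, no list held a peak up to the end of the chromosome. The peak-free stretch around HBA1, up to that end, was 330 kb (MTF2, sh#2), 476 kb (MTF2, shCT) and 609 kb (PHF19). Of all genes, 65.6%, 65.6% and 67.3% lay in a longer one.

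The beta cluster lay in a wider gap. In the MTF2 sh#2 list the flanking peaks were 655 kb to the left and 661 kb to the right. In the MTF2 shCT list they were 727 kb and 1387 kb away, and in the PHF19 list 1011 kb and 1019 kb. The peak-free stretch around HBB was 1361 kb long for MTF2 in sh#2 cells, and 30.3% of genes lay in a longer one. It was 2158 kb for MTF2 in shCT cells and 2075 kb for PHF19, with 28.1% and 41.1% of genes in a longer one.

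AHSP, at chr16:31539221-31540124, had its nearest MTF2 peak of the sh#2 list 154 kb to the left, over ITGAX, and that of the shCT list 191 kb to the left. The nearest PHF19 peak was 1500 kb to the right. Of all genes with a distance, 43.1% lay farther than AHSP from a peak of the MTF2 sh#2 list, 45.8% from one of the MTF2 shCT list and 16.2% from a PHF19 peak. For HBA1 these shares were 52.2%, 39.7% and 38.7%, and for HBB 15.4%, 18.6% and 21.5%. AHSP was thus near the middle of all genes for MTF2 and among the more distant ones for PHF19, where it was farther out than HBB.

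**Figure D3:**
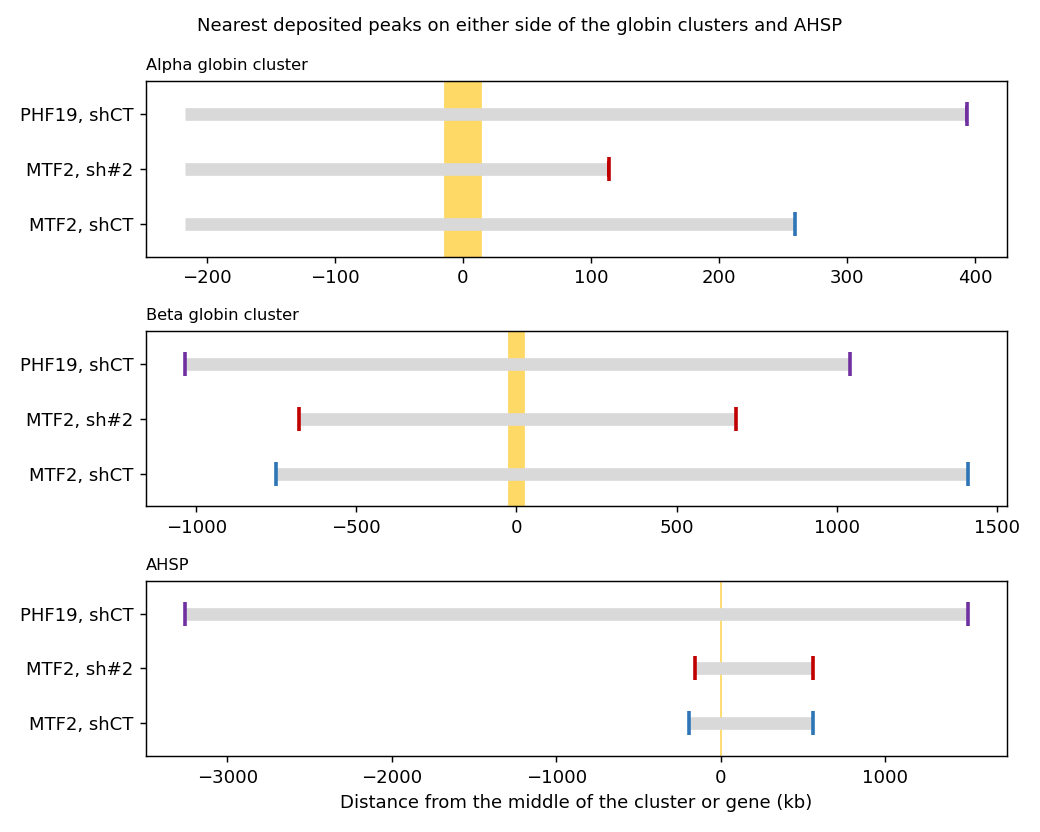
Nearest peaks on either side of the alpha cluster, the beta cluster and AHSP (yellow), by distance in kb from the middle of each. Grey bars are stretches with no peak and coloured ticks the flanking peaks, and no peak falls on a yellow area. On the alpha side the left end is the chromosome end.

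How often a gene had a peak differed between classes of RNA level, and not in one direction. Where the mean normalized count reached 10000 or more, 2.15% of genes had an MTF2 peak in sh#2 cells and 1.76% one in shCT cells, and 6.84% held a PHF19 peak. HBG2, HBG1, HBZ, HBA1 and HBA2 belong to these. In the MTF2 sh#2 list the share was 4.23% from 1000 to 10000 (HBE1, HBD), 11.6% from 100 to 1000 (HBQ1, AHSP) and 28.8% from 10 to 100 (HBB). It was 32.3% above 0 to 10 and 18.8% at 0, classes with none of the 10 genes. For PHF19 the differences among the higher classes were small, with 7.31% from 1000 to 10000 and 9.21% from 100 to 1000. The PHF19 share was 17.1% from 10 to 100 and 5.25% at 0. For the 5 highest genes few MTF2 peaks were found among genes of like level, whereas HBB lay in a class where peaks of both factors were more frequent. That class is not split by CpG content, which was low at HBB, so the lack of a peak at HBB cannot be called unusual. These classes were set after the data were seen.

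**Figure D4:**
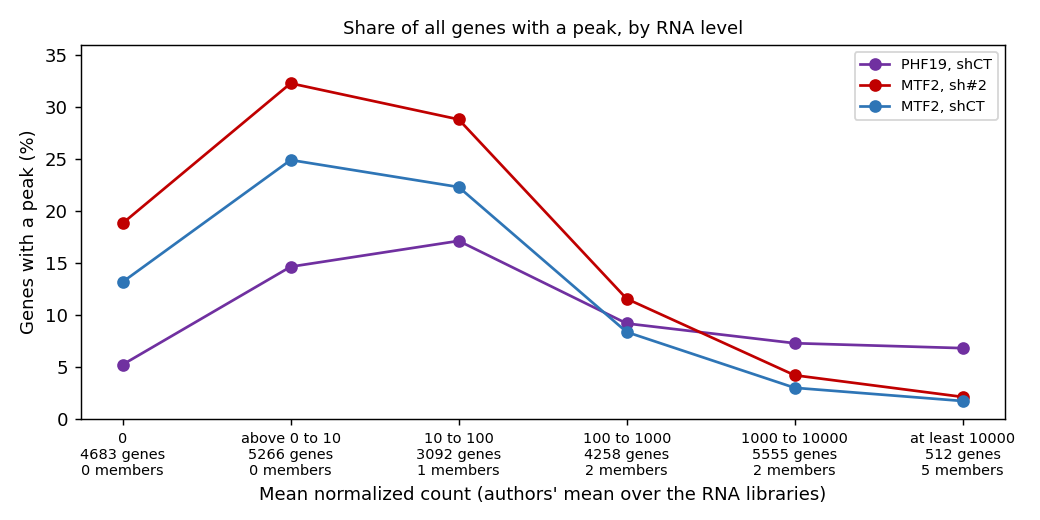
Share of all genes with a peak (percent) by class of mean normalized count, for each list, with the number of genes and of the 10 globin and chaperone genes in each class. In the MTF2 sh#2 list the share is 28.8% from 10 to 100, which holds HBB, and 2.15% at 10000 or more, which holds 5 of the 10.

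CpG content around the start differed between and within the clusters. Within 500 bp of the start, the ratio of observed to expected CpG was 0.871 for HBA1, 0.871 for HBA2 and 0.830 for HBQ1, above the median of 0.677 over all genes. HBZ was at 0.207 and AHSP at 0.274. The beta-like genes were between 0.079 (HBD) and 0.168 (HBG2). Of all genes at 0.6 or more, 19.6% had an MTF2 peak in sh#2 cells, 15.2% one in shCT cells and 12.8% a PHF19 peak. From 0.4 to 0.6 these shares were 20.2%, 14.8% and 9.72%, and below 0.4 they were 14.6%, 10.1% and 5.79%. Among the 477 genes with both a ratio of at least 0.6 and a level of at least 10000, which include HBA1 and HBA2, they were 2.31%, 1.68% and 6.71%. With the same ratio and a level from 100 to 1000, the class of HBQ1, they were 12.9%, 9.19% and 10.2%. HBA1 and HBA2 thus combined CpG-rich starts with high RNA and no peak. HBQ1 had a CpG-rich start, a lower level and no peak. The other 7 of the 10 genes had CpG-poor starts. Among the 744 genes with a ratio below 0.4 and a level of at least 100, which include 6 of these 7, the shares were 5.78%, 5.24% and 5.51%. For HBB, which had a lower level, no class joining CpG and level was computed.

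Genes around and above the globins were set beside them. None of the 6 neighbours of the alpha cluster, the 7 of the beta cluster and the 4 placed neighbours of AHSP had a peak in any list. Of 14 regulators of globin genes, 2 had an MTF2 peak in sh#2 cells, 2 had one in shCT cells and 3 had a PHF19 peak. Over all genes placed, these shares were 18.0%, 13.5% and 10.2%. BCL11A, a repressor of gamma globin, had peaks in all 3 lists. The highest was an MTF2 peak of sh#2 cells at chr2:60780938-60785090, with a score of 827.55 against 391.73 for the highest one in shCT cells. Within their lists, which differ in length, these peaks ranked 705 of 18287 and 772 of 12502. The median score was 112 in the sh#2 list and 86.6 in the shCT list. The highest PHF19 peak there scored 174.11. Scores come from separate lists of 1 library each, and their difference was not tested. SOX6, a partner of BCL11A in gamma globin repression, had 1 peak in each list, more than 248 kb from the start of its canonical transcript. NR2C2, a nuclear receptor that binds globin promoters, had a PHF19 peak over its start (score 56.43) and no MTF2 peak. This score and that of the PHF19 peak of SOX6 (51.41) lay below the median of the PHF19 list, 72.28.

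By RNA level, BCL11A had a mean normalized count of 70.0, SOX6 343 and ZBTB7A, a second gamma globin repressor, 658. Of the factors of the erythroid activating complexes, GATA1 was at 7043, TAL1 at 6552, NFE2 at 7394, LDB1 at 5840, KLF1 at 4463 and LMO2 at 4053. MYB, a factor of progenitors, was at 5124. LIN28B and IGF2BP1, RNA-binding proteins of the fetal program, were at 4041 and 11183, and the nuclear receptors NR2C1 and NR2C2 at 890 and 2764. These counts are not per length and were not ranked against each other. Of the other globins, NGB had MTF2 peaks, 2 in sh#2 cells and 1 in shCT cells, while it was listed at 0 in RNA.

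The labelled cell type was checked by markers. Of the erythroid markers, TFRC, the transferrin receptor, was at a mean normalized count of 31895 and EPOR, the erythropoietin receptor, at 632, beside GATA1, TAL1 and KLF1 above. Of the markers of other lineages, PF4, GP9 and MS4A1 were listed at 0, and CD14 and MPO were at 2.04 and 1.43. LYZ was at 2331, CD3D at 962 and ITGA2B at 232, and the other 9 lay between 5.82 and 75.8.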

How the data were processed

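RNA-seq (6 libraries) and ChIP-seq (6 libraries) of K562 cells were grouped by their labels. The genes and lists were chosen with earlier results of these data known. The authors aligned RNA reads with TopHat to hg19 and ran DESeq2 on RefSeq exons. Of the deposited table, only the mean normalized count over the libraries, a signal value that the authors scaled by library size factors, was used. Its other columns hold the authors' comparison of hairpin with shCT cells (log2 fold change, standard error, statistic, p-value, adjusted p-value) and were not used. Depth per library is unknown. ChIP reads were mapped to hg19 and dm3 with Bowtie, and MACS was used for peaks. The lists deposited by the authors hold positions with a caller score. Tool versions were not given in the sources used here.

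Genes were placed by symbol with GENCODE 44 on GRCh37, the assembly of hg19 (23366 of 27348), and 0 peaks ran past a chromosome end. Peaks and sequences were handled in Python 3.11.15 (biopython 1.88, pandas 2.3.3, numpy 2.4.6), figures drawn with matplotlib 3.10.9, and the steps checked on simulated data. Named were the 10 genes, other globins, regulators and neighbours with a peak, and the regulators. OR51B4, OR51B5, the genes at flanking peaks and the overlapping genes were named after their values were seen. No test was run, since there is 1 list per condition and 1 mean per gene. Alternatives were other gene regions, peak scores, overlaps, transcripts, exon lengths and stretch lengths. Promoter sequences are from RefSeq (GRCh38.p14). One marker of the erythroid list is not reported here.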

Additional observations from a re-analysis of the deposited data

How the results depend on the processing

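Of the 19 alternatives of the count of genes with a peak, 6 search bases outside the main region (2.5 kb on either side of a start, and 10 kb added on either side of the transcript, in each of the 3 lists), and in these the count stayed at 0 of 10. The others can only remove peaks or bases, so a count of 0 could not change under them. Of the 13 alternatives of the bases under peaks in the clusters, likewise, only the 6 with 50 kb added on either side could have given another value, and they gave 0. Levels depended on the scale used. Over the 4 scales, the highest exceeded the lowest by 8.61-fold for HBA1 and HBA2, 8.43-fold for HBG1, 4.86-fold for HBG2, 4.22-fold for HBZ and 1.39 to 2.79-fold for the other 5 genes. The highest was in each case the value per 1000 unique stretches, a different unit from the scales per kb. Per kb of exon alone, HBA1 ran from 15684 to 22697 and HBG1 from 99549 to 248788. With lower means (under 10) left out, 15.1% of genes were lower than HBB, against 41.3% of all genes above 0. With stretches of 100 bases, 34.6% of those in HBA1 exons and 72.1% of those in HBG1 exons were unique. No paired analysis was possible because the table gives 1 mean per gene and each ChIP condition has 1 library, and leaving out a library was not possible either. The peak lists carry no tag counts, so weak binding in the clusters was not detectable here.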
